A study of Mus musculus with 8 samples.

Results

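The protein kinase C (PKC) isoforms are a family of serine and threonine kinases, and their genes were taken as the rows of the count table with the symbols Prkca, Prkcb, Prkcd, Prkce, Prkch, Prkcq, Prkci and Prkcz. All 8 were found among the 13387 genes of the table. Of these, 7 had enough counts to be tested, and Prkcz was removed by edgeR's filter on low counts. Bulk RNA-Seq of C57BL/6 wild-type mouse cells compared 4 libraries of bone marrow megakaryocytes (MKs) cultured alone with 4 libraries of MKs cultured with wild-type marrow mesenchymal stromal cells (MSCs) sorted as CD45-Ter119-CD31-CD51+CD140a+, and the question was which transcripts differ after contact with MSCs. Both groups were kept for 18 hours in medium with thrombopoietin, each library was pooled from 5 wells, and the study's mice were 8 to 12 weeks old. MKs had been enriched on CD41 beads and were not sorted to purity, and the suspension was separated from adherent MSCs by hand. The labels describe the RNA as that of MKs freed of platelets, whereas the methods describe it as that of platelets.

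PKC isoforms translate lipid signals into phosphorylation. Classical isoforms (cPKC, the genes Prkca and Prkcb) need calcium and diacylglycerol, the calcium-independent nPKC isoforms (Prkcd, Prkce, Prkch, Prkcq) need diacylglycerol alone, and atypical isoforms (aPKC, the genes Prkci and Prkcz) respond to neither and act through protein partners in cell polarity. In MKs and platelets, phospholipase C downstream of thrombin and collagen receptors makes the diacylglycerol that switches on cPKC and nPKC isoforms, which drive granule secretion and integrin activation.

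Totals ran from 4939874 to 12523616 counts per library, and 3 counts, taken as the detection floor, came to 0.284 to 0.662 CPM (counts on the CPM scale, computed with TMM-adjusted library sizes). The libraries of MKs cultured alone resembled each other, with Spearman's correlations across genes of 0.967 to 0.987. Replicate 3 of the cocultures stood apart from replicates 1, 2 and 4, with correlations of 0.722 to 0.750, and 1012 genes were at 0 in it although each of the other libraries held 10 or more counts. The tests of the PKC genes and the calls of the gene lists are therefore given with all 8 libraries and without that library. The paper counts its sequenced platelet samples as separate mice, but no label ties a library to a mouse, so p-values measure the spread between these libraries.

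RefSeq start-site windows (GRCm38.p6, 250 bases before to 50 after the start) were found for 6 of the 8 genes, in 9 windows. For each of the 4 genes on which the comparison turns, 1 window is shown 5′ to 3′ on the gene's strand. Prkcd had a lower and Prkci a higher level in cocultures, and Prkcb and Prkcq a lower level when coculture replicate 3 is left out. A further Prkcd window, at chr14:30610261-30610560, is not shown. Capitals mark the ETS motif (CGGAAG or AGGAAG) or the RUNX motif (TGTGGT or TGCGGT), each searched on both strands together with the GATA motif (AGATAA or TGATAA), as factors of these families act in MK genes.
Prkcd, chr14:30626159-30626458, minus strand: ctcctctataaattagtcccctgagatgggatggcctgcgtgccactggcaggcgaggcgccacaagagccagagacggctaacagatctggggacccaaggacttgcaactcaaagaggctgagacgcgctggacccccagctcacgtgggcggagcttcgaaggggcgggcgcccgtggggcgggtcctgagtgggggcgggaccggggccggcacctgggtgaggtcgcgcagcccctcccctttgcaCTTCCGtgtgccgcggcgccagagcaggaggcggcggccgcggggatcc
Prkcb, chr7:122288875-122289174, plus strand: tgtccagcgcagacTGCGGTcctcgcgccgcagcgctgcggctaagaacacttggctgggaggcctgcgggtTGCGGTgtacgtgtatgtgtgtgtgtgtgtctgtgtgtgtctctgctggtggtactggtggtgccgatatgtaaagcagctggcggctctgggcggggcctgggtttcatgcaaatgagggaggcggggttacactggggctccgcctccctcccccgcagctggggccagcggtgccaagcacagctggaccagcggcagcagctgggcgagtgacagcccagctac
Prkcq, chr2:11172132-11172431, plus strand: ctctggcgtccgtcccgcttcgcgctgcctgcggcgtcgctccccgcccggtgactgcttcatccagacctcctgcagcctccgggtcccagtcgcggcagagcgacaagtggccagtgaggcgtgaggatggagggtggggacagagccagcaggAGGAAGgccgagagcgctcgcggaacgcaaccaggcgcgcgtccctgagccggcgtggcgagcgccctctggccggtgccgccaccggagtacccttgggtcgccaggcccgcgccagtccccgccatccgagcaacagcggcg
Prkci, chr3:30995521-30995820, plus strand: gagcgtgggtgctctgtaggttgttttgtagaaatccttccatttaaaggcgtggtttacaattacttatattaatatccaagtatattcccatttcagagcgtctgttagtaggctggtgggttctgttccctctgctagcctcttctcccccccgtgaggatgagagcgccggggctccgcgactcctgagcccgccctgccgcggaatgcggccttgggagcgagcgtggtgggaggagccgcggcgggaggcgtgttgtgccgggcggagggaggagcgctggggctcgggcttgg
The Prkcd and Prkcq windows each held 1 ETS motif, the Prkcb window held 2 RUNX motifs, and the Prkci window held none of the motifs. None of the 9 windows held a GATA motif, which 18.6% of all 32851 windows in the RefSeq table did, against 46.5% for ETS and 22.4% for RUNX. GC content was 69.3% in the Prkcd window, 65.3% for Prkcb, 73.0% for Prkcq and 59.7% for Prkci. The Prkcd and Prkci windows shown contained the gene start of the GENCODE annotation, and those of Prkcb and Prkcq lay downstream of it. The further Prkcd window did not contain it, had a GC content of 51.3% and held 1 ETS motif. These matches describe the letters of the windows only.

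Prkcd, the gene of PKCδ, was the PKC gene with the clearest difference between the groups. Its level was 2.06-fold lower in cocultures, and the groups did not overlap. Prkci, the gene of PKCι, was 1.72-fold higher in cocultures, also without overlap, which is less than the 2-fold used for calling. The other tested genes overlapped between the groups when all 8 libraries were used. A gene was called when edgeR's quasi-likelihood test gave a fold change of 2 or more and a Benjamini-Hochberg adjusted p of 0.05 or less, and when 1 group averaged 1 CPM or more. By this rule 1 of 7 tested PKC genes was called lower and 0 were called higher, and DESeq2 gave the same counts. Over all genes tested, 7.31% were called lower and 13.2% higher, so 1 call among 7 genes is no result about the family. At an unadjusted p under 0.05, 1 of the 7 was lower (Prkcd), as were 14.5% of all genes, and 1 was higher (Prkci), as were 21.7% of all genes. Groups did not overlap for 1 PKC gene that was lower (21.1% of all genes) and 1 that was higher (19.3%). Without coculture replicate 3, 3 of the 7 were called lower (15.4% of all genes) and 0 higher (20.6%). The median log2 fold change was -0.66 over the 7 PKC genes and 0.03 over all 11722 genes, but with a correction for gene length these medians were 0.27 and 0.34. Without coculture replicate 3, the same correction gave medians of -0.53 and 0.06.

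**Figure D1:**
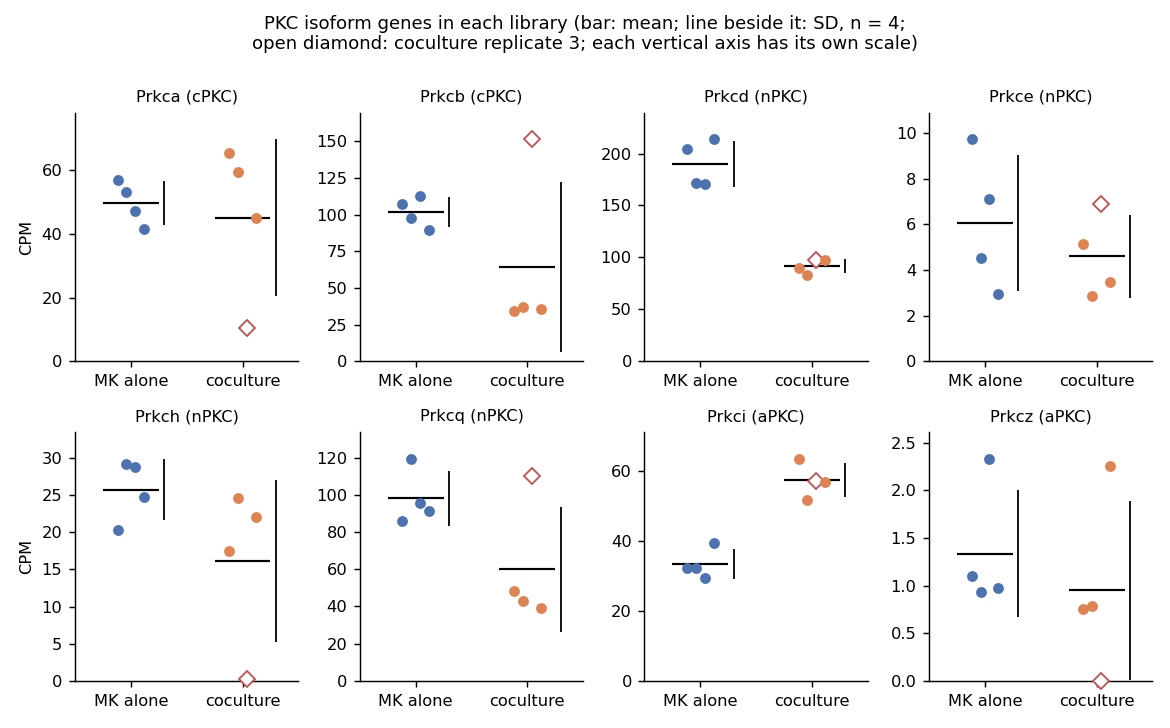
CPM of each PKC gene (vertical axis, linear, own scale per gene) in MKs cultured alone (blue) and cocultures (orange), with 1 point per library, a bar for the mean and a line beside it for the SD (n = 4). Prkcd and Prkci separate the groups. The open diamond of coculture replicate 3 lies above or below the other cocultures for every gene but Prkci, narrowly so for Prkcd (97.7 against at most 97.5 CPM).

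Among the classical isoforms, Prkca encodes PKCα, which drives granule secretion in platelets. Its level was 56.9, 53.1, 47.0 and 41.5 CPM in MKs cultured alone and 65.3, 59.3, 10.5 and 44.9 CPM in cocultures 1 to 4. The groups overlapped, and the lowest value of all was coculture replicate 3. The log2 fold change was -0.14 ± 0.49 (SE), with an adjusted p of 0.867 by edgeR. Without that replicate it was 0.17 ± 0.19 (adjusted p = 0.466), so its direction depended on 1 library.

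Prkcb encodes PKCβ, best known in B cell receptor signaling and present in platelets, where it acts below the fibrinogen receptor. Its level was 107, 97.4, 112 and 89.2 CPM in MKs cultured alone and 34.0, 36.9, 151 and 35.4 CPM in cocultures. Replicates 1, 2 and 4 lay below every library of MKs cultured alone, and replicate 3 lay above all of them. With 8 libraries the log2 fold change was -0.66 ± 0.50 (SE), with an adjusted p of 0.385 by edgeR. Without coculture replicate 3 it was -1.54 ± 0.18, a 2.91-fold lower level that passed the call (adjusted p = 1.48e-06). Leaving out any other library left Prkcb uncalled.

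Among the nPKC isoforms, Prkcd encodes PKCδ, whose effect on platelet dense granule secretion differs between agonists. Its level was 204, 171, 171 and 214 CPM in MKs cultured alone (190 ± 22.3, SD, n = 4). In cocultures it was 89.7, 83.2, 97.7 and 97.5 CPM (92.0 ± 6.96, SD, n = 4). The groups were separated by a wide gap, and coculture replicate 3 lay with the other cocultures. The log2 fold change was -1.04 ± 0.17 (SE), with a 95% confidence interval of -1.43 to -0.66 and an adjusted p of 0.00269 by edgeR. Without replicate 3 it was -1.09 ± 0.17 (adjusted p = 4.13e-05). The interval reached across the 2-fold boundary, and without coculture replicate 2 the log2 fold change of -0.96 fell short of it (adjusted p = 0.0151). Over the 8 libraries left out in turn, the adjusted p ran from 4.13e-05 to 0.0154. With a correction for gene length and all 8 libraries, the log2 fold change was -0.47 ± 0.40 (SE, edgeR adjusted p = 0.424). Without coculture replicate 3, that correction gave -1.02 ± 0.17 (SE, edgeR adjusted p = 8.65e-05), and Prkcd was called.

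Prkcq encodes PKCθ, known from T cell activation and also found in platelets. Its level was 85.9, 119, 95.6 and 91.4 CPM in MKs cultured alone and 48.1, 42.7, 110 and 39.2 CPM in cocultures. As for Prkcb, cocultures 1, 2 and 4 lay below all MKs cultured alone and replicate 3 lay among them. The log2 fold change was -0.71 ± 0.35 (SE) with an adjusted p of 0.187 by edgeR, and -1.20 ± 0.18 without replicate 3, where Prkcq was called lower by 2.29-fold (adjusted p = 3.73e-05). No other single library, when left out, made it pass.

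Prkch encodes PKCη, which is known from epithelia and T cells. Its level was 20.3, 29.2, 28.7 and 24.7 CPM in MKs cultured alone and 17.5, 24.6, 0.314 and 22.0 CPM in cocultures. The groups overlapped, and replicate 3 held only 3 counts of Prkch (95% exact Poisson interval 0.0647 to 0.917 CPM, for counting error only) where about 204 would match the mean of the other cocultures. The log2 fold change was -0.68 ± 0.88 (SE) with an adjusted p of 0.621 by edgeR, and -0.30 ± 0.22 without that replicate (adjusted p = 0.265).

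Prkce encodes PKCε, which has been studied in MK differentiation. Its level was low, at 9.71, 4.53, 7.10 and 2.93 CPM in MKs cultured alone and 5.12, 2.87, 6.91 and 3.47 CPM in cocultures. The groups overlapped over most of their range, and the highest value stood in MKs cultured alone. The log2 fold change of -0.39 ± 0.59 (SE) had an adjusted p of 0.669 by edgeR (0.201 without coculture replicate 3). It held 18 to 66 counts per library.

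Among the atypical isoforms, Prkci encodes PKCι, the kinase of the Par polarity complex. Its level was 32.4, 32.3, 29.5 and 39.5 CPM in MKs cultured alone (33.4 ± 4.28, SD, n = 4). In cocultures it was 63.6, 51.7, 57.3 and 57.1 CPM (57.4 ± 4.86, SD, n = 4). Every coculture lay above every library of MKs cultured alone, and replicate 3 was 0.998 times the mean of the other cocultures. The log2 fold change was 0.78 ± 0.23 (SE, 95% confidence interval 0.26 to 1.30), with an adjusted p of 0.0387 by edgeR, and 0.76 ± 0.18 without replicate 3 (adjusted p = 0.00214). Prkci thus passed the p threshold but not the fold threshold, and its adjusted p ran from 0.00214 to 0.118 with each library left out in turn. Only without coculture replicate 3 did it pass, and with any other library left out it was 0.0647 or more. With all 8 libraries, the edgeR adjusted p was 0.0797 with a replicate block and 0.0631 with a correction for gene length.

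Prkcz encodes PKCζ, the other atypical isoform. It held 5, 9, 21 and 6 counts in MKs cultured alone and 8, 6, 0 and 13 counts in cocultures. These counts put it near the detection floor in both groups, with overlap. In coculture replicate 3, where it had 0 counts, the floor of 3 counts stood at 0.314 CPM. With no filter on low counts, the log2 fold change was -0.54 ± 1.07 (SE) with an adjusted p of 0.748 by edgeR, so a difference was not detectable at this depth.

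**Figure D2:**
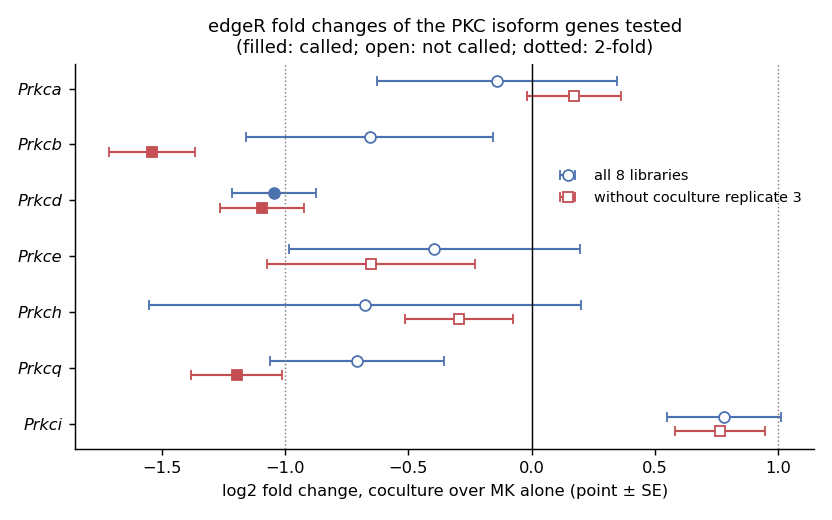
Fitted log2 fold change of cocultures over MKs cultured alone (horizontal axis) with its SE for the 7 tested PKC genes, with all 8 libraries (circles) and without coculture replicate 3 (squares), and filled symbols for called genes. Prkcd stays near -1 in both, Prkcb and Prkcq move from -0.66 and -0.71 to -1.54 and -1.20, and Prkca crosses 0.

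Levels were compared between genes as CPM per kilobase of annotated exon. In MKs cultured alone the order was Prkcd (34.3), Prkcq (13.8), Prkcb (13.3), Prkci (6.02), Prkca (5.52), Prkch (3.42), Prkce (0.84) and Prkcz (0.21), as means over 4 libraries. Prkcq and Prkcb overlapped in their ranges, as did Prkci and Prkca, so the order within these pairs was not resolved, and the other neighbours did not overlap. In cocultures without replicate 3 the order was Prkcd (16.3), Prkci (10.4), Prkca (6.28), Prkcq (6.12), Prkcb (4.63), Prkch (2.84), Prkce (0.53) and Prkcz (0.20). Prkcd stayed highest and Prkci moved from the fourth to the second place, while Prkca and Prkcq overlapped and the other neighbours did not. With replicate 3 included, the means of Prkcq (8.47) and Prkcb (8.41) stood above that of Prkca. With the longest transcript in place of all exons, Prkcb stood above Prkcq in MKs cultured alone (30.5 and 24.7 CPM per kb), since the annotated exons of Prkcb span 7651 bases and its longest transcript 3328. On that length Prkch (7.08) also stood above Prkca (5.90) in MKs cultured alone. The ranges of Prkcb and Prkcq overlapped there, as did those of Prkch and Prkca, so the order within these pairs was not resolved. In cocultures without replicate 3, Prkca (6.72) then stood below Prkcq (10.9) and Prkcb (10.6), while Prkcd (31.6) and Prkci (12.2) stayed first and second. The range of Prkci overlapped those of Prkcq and Prkcb there. With replicate 3 included, the mean of Prkci (12.2) stood below those of Prkcb (19.3) and Prkcq (15.1) on that length, as it did in MKs cultured alone, but in cocultures the ranges overlapped.

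The share of each gene in the summed length-scaled PKC signal does not depend on how libraries are scaled to each other. The nPKC isoforms held 66.7%, 68.0%, 65.7% and 70.1% of it in MKs cultured alone and 52.7%, 54.2%, 52.2% and 56.7% in cocultures. The atypical isoforms, almost wholly Prkci, held 7.58%, 7.76%, 7.61% and 9.25% in MKs cultured alone and 23.5%, 20.7%, 15.8% and 22.7% in cocultures. The groups did not overlap for either class, replicate 3 included. The classical isoforms held 24.3% ± 2.63 (SD, n = 4) and 25.3% ± 4.82 (SD, n = 4), with overlap. Within the classical isoforms, Prkcb stood below Prkca in cocultures 1, 2 and 4, where Prkcb held 9.02% to 10.6% and Prkca 10.7% to 14.7%, while in replicate 3 Prkcb held 30.2% and Prkca 1.78%. That order depends on the length used, since with the longest transcript Prkcb held 12.6% to 14.5% and Prkca 6.73% to 9.60% in cocultures 1, 2 and 4. With the longest transcript, the nPKC share averaged 69.3% without and 59.5% with MSCs, and the atypical share 5.18% and 14.4%. These shares are a description, without a test.

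**Figure D3:**
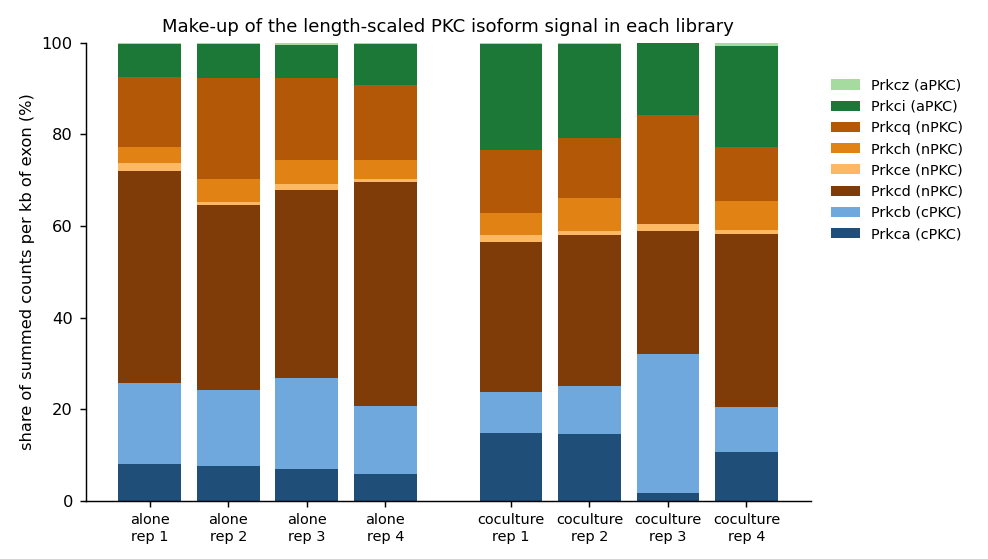
Share of each PKC gene in the summed counts per kilobase of exon (vertical axis, percent) in each library, stacked by class, with classical genes in blue, nPKC genes in brown and orange, and atypical genes in green. The green Prkci segment is 7.12% to 9.05% in MKs cultured alone and 15.8% to 23.2% in cocultures, and coculture replicate 3 holds more Prkcb and Prkcq and less Prkca and Prkch than the other cocultures.

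Ratios of raw counts between PKC genes within a library give the same contrast free of scaling. The ratio of Prkcd to Prkci was 6.29, 5.31, 5.78 and 5.40 in MKs cultured alone and 1.41, 1.61, 1.70 and 1.71 in cocultures. The values within each group lay close together, with replicate 3 among the other cocultures, and the mean log2 ratio was 2.50 ± 0.11 and 0.68 ± 0.13 (SD, n = 4 each). Of the 21 ratios among the 7 tested genes, 3 did not overlap between the groups, those of Prkcd, Prkch and Prkcq to Prkci. Prkci came last in the gene order, so it was the denominator in all 6 of its ratios. Prkcd and Prkci also separated the groups on their own. The share among ratios of all genes was not computed, so this count is no result about the family. The pair of Prkcd and Prkci was picked after its values were seen and carries no test.

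Coculture replicate 3 did not depart from the others in 1 direction. Relative to the mean of replicates 1, 2 and 4 it held 4.27 times as much Prkcb, 2.54 times as much Prkcq and 1.81 times as much Prkce, but 0.185 times as much Prkca and 0.0147 times as much Prkch. Prkcd was at 1.08 times that mean.

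The libraries held RNA of several cell types, and these moved with the groups. MK and platelet markers were present in every library, with a summed level of 2330 to 2580 CPM in MKs cultured alone and 1812 to 2365 CPM in cocultures, and 1 of 15 (Nfe2) was called lower, or 3 of 15 (Nfe2, Gp1ba and Gp6) without coculture replicate 3. Neutrophil markers summed to 84606 to 86382 CPM in MKs cultured alone and 4303 to 10218 CPM in cocultures, above the MK list in every library, and 11 of 11 were called lower. MSC markers summed to 33.7 to 66.4 CPM and 1203 to 4032 CPM, with 6 of 8 tested called higher, and Lepr, Kitl and Postn at 0 in coculture replicate 3. Macrophage markers summed to 150 to 225 CPM and 914 to 1357 CPM, with 8 of 9 called higher and Marco at 0 in every library of MKs cultured alone. Markers called lower were 4 of 9 for B cells, 3 of 7 for T and NK cells, 6 of 7 for eosinophils, 5 of 7 for mast cells and basophils, 0 of 5 for erythroid cells and 1 of 4 for endothelial cells. Without coculture replicate 3 these counts were 7 of 9 for B cells, 7 of 8 for T and NK cells, 6 of 7 for eosinophils, 6 of 7 for mast cells and basophils, 4 of 6 for erythroid cells and 2 of 4 for endothelial cells, where 1 was also called higher. MSC markers were then 9 of 9 higher, macrophage markers 10 of 10 higher and neutrophil markers 11 of 11 lower. B cell markers summed to 891 to 958 CPM and 91.2 to 235 CPM, and T and NK cell markers to 149 to 239 CPM and 31.9 to 39.1 CPM. Eosinophil markers summed to 1036 to 1695 CPM and 12.1 to 65.7 CPM, and mast cell and basophil markers to 1251 to 1432 CPM and 148 to 298 CPM. The sums of erythroid markers (38.8 to 62.8 CPM and 19.6 to 93.8 CPM) and endothelial markers (46.5 to 49.8 CPM and 13.8 to 68.4 CPM) overlapped. In coculture replicate 3, 5 T and NK cell, 4 eosinophil, 4 endothelial and 3 erythroid markers were at 0. The part of these cell types in the PKC results was not tested, and in bulk libraries fewer cells of a type and less RNA per cell cannot be told apart. When libraries were scaled to the MK and platelet markers, the median of all genes moved to 0.31, and relative to that median Prkcd stood at -1.09 and Prkci at 0.74 on the log2 scale. In the fit reported these were -1.08 and 0.75. Scaling shifts all genes about alike and subtracting the median largely undoes it, so this nearness is no test. On the marker scaling Prkci itself was called higher (log2 fold change 1.05) and Prkcd was no longer called (-0.78).

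Genes around the PKC isoforms were examined in 7 lists holding 77 genes, of which 73 were in the table and 65 were tested. With all 8 libraries, 8 were called higher and 8 lower, 12.3% each, against 13.2% and 7.31% of all genes. Without coculture replicate 3 the counts were 14 higher and 18 lower of 69, or 20.3% and 26.1%, against 20.6% and 15.4% of all genes. Calls higher lay in the lists for maturation (3 of 12), atypical partners (2 of 8), anchors and substrates (2 of 12) and diacylglycerol supply (1 of 10), and calls lower in anchors and substrates (3 of 12), other diacylglycerol receptors (2 of 8), CARD effectors and PKC-related kinases (2 of 8) and diacylglycerol kinases (1 of 7). Without coculture replicate 3, calls higher and lower were 1 and 0 of 12 for maturation, 3 and 0 of 8 for atypical partners, 4 and 3 of 13 for anchors and substrates, and 4 and 3 of 11 for diacylglycerol supply. They were 2 and 6 of 10 for other diacylglycerol receptors, 0 and 4 of 8 for CARD effectors and PKC-related kinases, and 0 and 2 of 7 for diacylglycerol kinases. Gna11, Dgkg, Rasgrp1, Rasgrp2, Cavin3, Marcksl1, Pard3 and Sqstm1, described next, were called in the same direction in both fits.

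**Figure D4:**
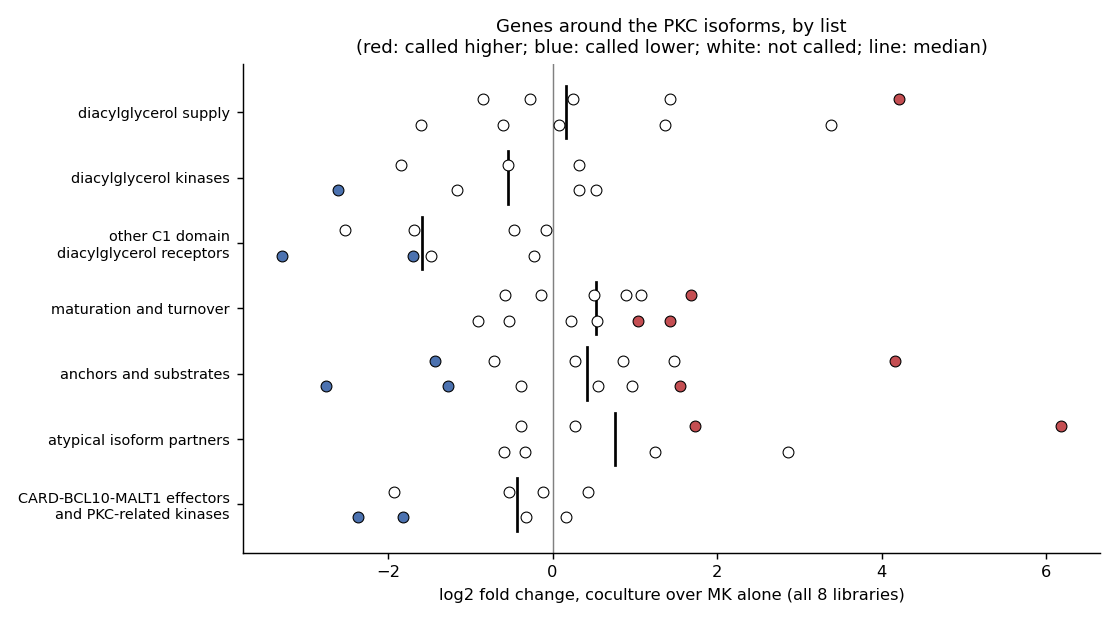
Fitted log2 fold change (horizontal axis, cocultures over MKs cultured alone, all 8 libraries) of each tested gene in the 7 lists (rows), with red for genes called higher, blue for called lower, white for not called and a line for the list's median. The median was -1.58 for the list named other diacylglycerol receptors, where no gene was called higher, and 0.76 for atypical partners, where none was called lower.

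Diacylglycerol is supplied by phospholipases C below G proteins and tyrosine kinases. Gnaq, the Gq subunit below thrombin receptors, was at 112 ± 13.1 CPM (SD, n = 4) in MKs cultured alone and 118 ± 45.4 CPM in cocultures (edgeR adjusted p = 0.890). Gna11, its closest relative, was called higher, from 6.91 ± 1.68 to 129 ± 100 CPM (log2 fold change 4.21, adjusted p = 6.97e-04, and 3.47 without coculture replicate 3). Plcg2, the phospholipase below collagen receptors and B cell receptors, was at 135 ± 27.1 and 44.9 ± 26.1 CPM, without overlap. Its log2 fold change of -1.59 did not pass with all 8 libraries (edgeR adjusted p = 0.0693) and was called without coculture replicate 3 (-1.26, adjusted p = 5.44e-05).

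Diacylglycerol kinases end the signal by phosphorylating the lipid. Dgkg was called lower, from 26.5 ± 3.32 to 4.35 ± 2.34 CPM (SD, n = 4 each, log2 fold change -2.61, edgeR adjusted p = 0.0112). Dgka was at 40.7 ± 6.46 and 11.3 ± 6.56 CPM and was called only without coculture replicate 3 (log2 fold change -1.50, adjusted p = 1.54e-05, against 0.0598 with all libraries). Dgkd, at 110 ± 12.1 and 75.9 ± 19.3 CPM, and Dgkz, at 69.2 ± 15.9 and 86.6 ± 59.0 CPM, were not called in either fit.

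The list named other diacylglycerol receptors was drawn from protein families with a C1 domain, most of which read the same lipid. Its name does not hold for Unc13d, whose protein lacks that domain, or for Rasgrp2, whose protein binds the lipid weakly at best. Rasgrp2, the activator of Rap1 in platelets that works beside PKC in integrin activation, was called lower, from 21.8 ± 2.82 to 6.72 ± 1.92 CPM (SD, n = 4 each, log2 fold change -1.69, edgeR adjusted p = 0.0166). Rasgrp1, a Ras activator known from T cells, was called lower as well, from 28.3 ± 7.85 to 2.88 ± 2.40 CPM (adjusted p = 0.0475), with 0 counts in coculture replicate 3. Prkd3, a protein kinase D that PKC activates, was at 105 ± 20.5 and 37.8 ± 25.4 CPM and was also at 0 in that library. It was called only without it (log2 fold change -1.08, edgeR adjusted p = 1.42e-04). Rasgrp3 was at 24.9 ± 6.84 and 21.3 ± 17.6 CPM and was likewise called only without that library (log2 fold change -1.01, adjusted p = 0.00444). Unc13d, the Munc13-4 tether of platelet granules, was at 53.0 ± 8.86 and 38.1 ± 9.22 CPM and was not called.

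PKC proteins must be folded by HSP90 with CDC37 and phosphorylated before they can respond. Hsp90ab1 was called higher, from 568 ± 81.2 to 1165 ± 427 CPM (SD, n = 4 each, log2 fold change 1.04, edgeR adjusted p = 0.0221), and Cdc37 from 79.1 ± 18.4 to 213 ± 142 CPM (1.43, adjusted p = 0.0406). Neither reached 2-fold without coculture replicate 3, where the log2 fold changes were 0.73 and 0.83. Hsp90aa1 was at 411 ± 85.8 and 764 ± 109 CPM, which passed the p threshold but not 2-fold (log2 fold change 0.90, edgeR adjusted p = 0.0137).

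Substrates and anchors moved in both directions. Plek, which encodes pleckstrin, the major PKC substrate of platelets, was called lower, from 1883 ± 444 to 778 ± 132 CPM (SD, n = 4 each, log2 fold change -1.28, edgeR adjusted p = 0.00409). Snap23, the platelet SNARE for granule release, was called lower as well, from 627 ± 130 to 234 ± 75.9 CPM (-1.42, adjusted p = 0.00800), as was Add3, an adducin of the membrane skeleton, from 175 ± 34.3 to 25.9 ± 17.9 CPM (-2.76, adjusted p = 0.0422). All 3 were called lower without coculture replicate 3 as well. Cavin3, a caveolar protein that binds PKCδ, was called higher, from 1.54 ± 0.74 to 28.3 ± 2.31 CPM (4.16, edgeR adjusted p = 4.44e-04). Marcksl1, a MARCKS-related substrate, was called higher from 34.5 ± 4.70 to 101 ± 47.0 CPM (1.54, adjusted p = 0.00976), and Rack1, a scaffold for activated PKC, averaged 400 CPM without MSCs and 726 CPM (SD 584) with them and was not called. Coculture replicate 3 held 1601 CPM of Rack1, and the other cocultures averaged 435 CPM (log2 fold change 0.10 without that library, edgeR adjusted p = 0.663).

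Partners of the atypical isoforms form the polarity complex. Pard3, which binds PKCι in that complex, averaged 0.18 ± 0.24 CPM in MKs cultured alone and 15.2 ± 4.68 CPM in cocultures (SD, n = 4 each). The mean in MKs cultured alone lay under the floor of 3 counts, though 1 library was above it, at 0.52 CPM. Pard3 was called higher (edgeR adjusted p = 0.00335). Sqstm1, the p62 scaffold of atypical PKC, was called higher from 577 ± 43.1 to 1909 ± 940 CPM (log2 fold change 1.73, adjusted p = 0.00950). Llgl1, a polarity substrate, was at 15.5 ± 3.41 and 36.7 ± 21.1 CPM, without overlap, and was not called (1.24, edgeR adjusted p = 0.0796). Cdc42, the GTPase that recruits Par6, was at 1839 ± 281 and 1454 ± 309 CPM and was not called.

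PKCβ and PKCθ signal to NF-κB through BCL10 and MALT1 in lymphocytes. Malt1 was called lower, from 46.6 ± 14.0 to 13.2 ± 6.55 CPM (SD, n = 4 each, log2 fold change -1.82, edgeR adjusted p = 0.0248), and was called lower without coculture replicate 3 as well. Bcl10 was at 105 ± 5.33 and 72.7 ± 14.4 CPM, without overlap and below 2-fold (-0.53, edgeR adjusted p = 0.0891). The PKC-related kinase Pkn2, at 64.5 ± 13.1 and 59.4 ± 39.6 CPM, was not called.

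Likeness of pattern was measured as Pearson's r of log2(CPM + 1) over the 8 libraries among genes with a mean of at least 10 CPM, as a description, since the libraries share the 2 groups and the outlying replicate. Prkcd was most like Kdm7a, Dach1 and Ogfrl1 (r between 0.988 and 0.989), each lower in every coculture. Prkci was most like Derl2 (r = 0.989), Serpinb9 and Phldb2 (r = 0.979 each), each higher in every coculture. Prkcb was most like Hjurp, Cep85 and Rassf3 (r between 0.989 and 0.993), and Prkcq was most like Zfp426, Rinl and Rgs10 (r between 0.983 and 0.989). Prkca was most like Fyco1, Anapc4 and Irgm2, and Prkch most like Ccnq, Tbcc and Tmed3. For these last 2 PKC genes the values were 0.993 to 0.999 with all libraries and 0.898 to 0.954 without coculture replicate 3.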

How the data were processed

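The authors filtered paired-end low-input SMART-Seq HT reads with fastp, ran kallisto against an mm10 transcriptome index, and deposited raw whole-number counts per gene for 4 libraries of MKs cultured alone and 4 cocultures. How transcripts were summed to genes and whether strand was used is not given in the sources used here. Groups were taken from the labels. The PKC genes and all lists were chosen with earlier results of these data known.

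Counts were scaled with TMM factors, and 11722 genes passing filterByExpr were tested with edgeR 4.0.16 (robust quasi-likelihood F test, no covariate) in R 4.3.3. CPM uses TMM-scaled library sizes, and SE is the log2 fold change divided by the square root of F. Calls followed the study's cutoffs, with CPM in place of TPM. The labels' processing notes name kallisto, DESeq2 and mm10, and the study's DESeq2 design had a batch term that is not named. Exon and transcript lengths came from GENCODE vM21 (GRCm38, 13374 of 13387 genes). Prkca shares 30 exon bases with Apoh on the opposite strand and Prkce 472 bases with AC154542.1 on the same strand, and neither neighbor had a row. The test was checked on simulated data. Alternatives were DESeq2 1.42.0, other scalings and filters, glmTreat, a replicate block, a length correction, and each library left out. The genes named were the PKC genes, the 3 highest genes of each list, its 2 largest called rises and 2 largest called falls, and the 3 genes most like each PKC gene of at least 10 CPM. Marker and list genes without a row were not analysed here, and some genes that the rule names are not reported here.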

Additional observations from a re-analysis of the deposited data

Results flagged for a closer look

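For each PKC gene, share and marker sum, the 4 values of a group were searched for 1 far from the rest. Such a value was found in 8 of 52 searches, and 6 of the 8 belonged to coculture replicate 3, already known to stand apart. Chance alone would give about 2.6. The level and the share of the same gene were both searched, so 8 against 2.6 is no test. In that library log2(CPM + 1) of Prkcb was 7.25, against 5.13 to 5.24 in the other cocultures, and that of Prkch was 0.39, against 4.21 to 4.68. The share of Prkcb in the length-scaled PKC signal was 30.2% there and 9.02% to 10.6% in the others, and the share of Prkcq was 23.7% and 11.8% to 13.8%. Its neutrophil markers summed to 4303 CPM, against 9602 to 10218 CPM, and its erythroid markers to 93.8 CPM, against 19.6 to 22.7 CPM. In MKs cultured alone, replicate 3 stood apart for Prkcz, with a log2(CPM + 1) of 1.73 (0.95 to 1.07 in the others) and a share of 0.494% (0.191% to 0.220%), which rests on 21 counts.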

How the results depend on the processing

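Prkcd was lower under every alternative run, with log2 fold changes from -1.16 to -0.47 over the 11 alternatives with all 8 libraries. It was called in 7 of them. With the length correction it did not pass the p threshold (-0.47 ± 0.40, SE, edgeR adjusted p = 0.424). Nor did it with the replicate block added (-0.65 ± 0.40, SE, edgeR adjusted p = 0.354). With the length correction and coculture replicate 3 left out, Prkcd was called (-1.02 ± 0.17, SE, edgeR adjusted p = 8.65e-05). PKC genes called lower numbered 0 with libraries scaled to the MK and platelet markers, under glmTreat and under a length correction (with or without the replicate block), where 1 was called in the fit reported. They numbered 3 without coculture replicate 3, also when combined with the replicate block, DESeq2 or the length correction, and 0 to 3 with each library left out in turn. With that library left out on the marker scaling, 1 (Prkcb) was called lower, as Prkcd (-0.74) and Prkcq (-0.83) fell short of 2-fold. PKC genes called higher numbered 1 (Prkci) on the marker scaling, with and without that library. The length correction moved the median of all genes to 0.34 and that of the PKC genes from -0.66 to 0.27, and gave log2 fold changes of 0.16 for Prkca, 0.52 for Prkcb, 0.46 for Prkce and 0.27 for Prkcq, none past the p threshold. The cause was not tested. With the replicate block added, the length correction gave 0.11 for Prkca and 0.13 for Prkce. Without coculture replicate 3 and without the block, it gave medians of 0.06 for all genes and -0.53 for the PKC genes. Prkca was also positive on the marker scaling (0.20) and without coculture replicate 3 (0.17), there with the block (0.14), the marker scaling (0.54), DESeq2 (0.20) or the length correction (0.34), and ran from -0.37 to 0.17 with each library left out in turn. Prkch was at 0.061 without that library on the marker scaling. Combinations with that library left out were chosen after seeing the data.

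Pathway genes called higher, 8 in the fit reported, numbered 13 on the marker scaling, 3 with glmTreat and 3 with the length correction and block. With coculture replicate 3 left out they numbered 13 with the block, 21 on the marker scaling, 14 with DESeq2 and 15 with the length correction, and 5 to 14 with each library left out in turn. Those called lower, also 8, numbered 4 on the marker scaling, 1 with glmTreat, 3 with the replicate block and 2 with the length correction and block. With that library left out they numbered 17 with the block, 17 with DESeq2 and 16 with the length correction, and 3 to 18 with each library left out in turn. Deviations of same-numbered libraries from their group means correlated across genes with r = 0.37, 0.02, 0.15 and 0.03. For differently numbered libraries r ran from -0.28 to 0.10. With 4 numbers and no batch named by the labels, whether the numbers pair the samples was not settled. With the replicate block, 1 PKC gene was called lower (Prkcd, log2 fold change -1.04, adjusted p = 0.0135) and 0 higher.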
